A study of Homo sapiens with 3 samples.

Results

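A subset of stem-cell-derived glucagon cells carried RNA of the fetal plasma protein AFP and of the apolipoproteins APOA1, APOB and APOC3. These cells, called APO-high here, were selected on those values. A member had at least 1000 detected genes and at most 20% mitochondrial UMIs (counted RNA molecules). GCG, the glucagon gene, made up at least 5% of its UMIs, INS and SST less than 1% each, and AFP, APOA1, APOB and APOC3 together at least 0.15%. Of 3653 cells that passed the gene and mitochondrial limits, 2480 were glucagon cells within the hormone limits and 299 of these were APO-high. They were compared, inside each library, with 1469 APO-low cells, which met the same GCG, INS and SST limits and had a sum of the 4 genes under 0.05%. The 712 glucagon cells between both limits are called intermediate.

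All cells came from the embryonic stem cell line HUES8, an established human line that had been differentiated toward islet alpha cells (SC-alpha cells), dispersed to single cells and sequenced with 10x Genomics 3' v3 chemistry. The series has 1 group of 3 replicate libraries, all of the same line and with no named treatment, so every comparison lies within libraries. The labels do not say whether the replicates were separate differentiations, so the spread between these libraries may be only technical. The edgeR p-values and standard errors (SE) below rest on a spread trend shared by all genes, not on each gene's own spread between libraries. Replicates 1, 2 and 3 held 30139788, 31122791 and 30980799 UMIs in 2850, 2576 and 4257 barcodes, of which 1160, 1027 and 1466 passed, with medians of 15267, 20721 and 9991.5 UMIs. Library pairs shared 1 to 4 barcodes, and none of the shared barcodes passed the limits.

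Alpha cells are endocrine cells of the pancreatic islet that cleave proglucagon with the convertase PCSK2 and store glucagon in dense-core granules. AFP, the apolipoproteins and most plasma proteins are made by the liver, the yolk sac and, for several apolipoproteins, the intestinal epithelium, tissues that descend from endoderm as the pancreas does. APOB forms the scaffold of triglyceride-rich lipoproteins, APOA1 is the main protein of high-density lipoprotein, and APOC3 slows the clearance of triglyceride-rich particles. HNF1, HNF4 and FOXA transcription factors act in both hepatocytes and islet cells.

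The 4 genes that chose the cells are described first, without a test. APO-high cells numbered 123, 134 and 42 in replicates 1, 2 and 3, or 15.1%, 17.2% and 4.74% of the glucagon cells, averaging 12.3% ± 6.67 (SD, n = 3). Their exact binomial (Clopper-Pearson) 95% limits were 12.8 and 17.8% in replicate 1, 14.6 and 19.99% in replicate 2 and 3.43 and 6.35% in replicate 3. Such limits cover counting error only. Replicate 3, the shallowest library per cell, had the lowest share. Its median glucagon cell needed 15.6 UMIs of the 4 genes to reach the upper limit, against 24.6 and 32.5 UMIs in replicates 1 and 2. When cells with at least 5000 UMIs were drawn down to that number, 103 of 119, 112 of 127 and 28 of 38 APO-high cells stayed above the limit, and 1, 1 and 0 fell among the APO-low cells. At this equal depth 17.4%, 18.9% and 4.90% of the glucagon cells were APO-high in replicates 1, 2 and 3, so replicate 3 kept the lowest share.

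**Figure D1:**
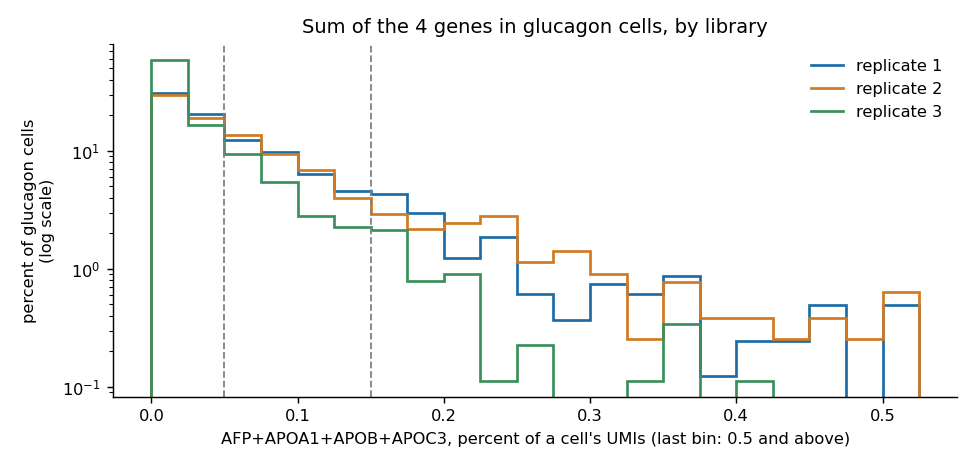
Percent of glucagon cells (vertical axis, log scale) by the summed share of AFP, APOA1, APOB and APOC3 UMIs in the cell (horizontal axis, percent), 1 line per library, with dashed lines at the limits of 0.05% and 0.15%. The sum fell off without a gap at either limit, and the line of replicate 3 lies below the others above 0.05%.

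The sum had no break at the limit. Just outside it, between 0.12% and 0.15%, lay 44, 40 and 23 cells with mean sums of 0.135%, 0.135% and 0.136%. Just inside it, between 0.15% and 0.18%, lay 40, 26 and 21 cells with mean sums of 0.164%, 0.163% and 0.163%. APO-high is thus a range of a sum without a gap, and whether the cells form a separate cluster was not tested. The median sum of the APO-high cells was 0.203%, 0.235% and 0.182%, and the highest sums were 1.03%, 0.907% and 0.415%.

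APOC3 gave the largest part of the members' sum, 37.9%, 38.2% and 52.6% of the UMIs in replicates 1, 2 and 3 (42.9% ± 8.43, SD, n = 3). AFP gave 30.7%, 32.9% and 13.2%, APOA1 24.5% ± 1.13 and APOB 6.95% ± 1.57. These are UMI counts from the 3' end, with 1 UMI per captured molecule and no scaling by transcript length. APOC3 was the leading gene of the 4 in 65, 73 and 32 members, AFP in 35, 47 and 4, APOA1 in 21, 14 and 5, and APOB in 2, 0 and 1. All 4 genes had a UMI in 86, 82 and 14 members. No AFP UMI was seen in 29, 33 and 26 members, so a large part of the replicate 3 members (61.9%) had been admitted on the apolipoproteins. The label, which names AFP first, therefore fits replicates 1 and 2 more closely than replicate 3.

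As counts per 1000000 UMIs (CPM) over the summed cells of a class, AFP stood at 792, 877 and 280 in APO-high cells against 16.9, 25.0 and 4.47 in APO-low cells. AFP lies on chromosome 4 at 73431138 to 73456174 of GRCh38, next to ALB at 73397114 to 73421412 on the same strand. ALB, the gene of serum albumin, had a UMI in 22 of the 299 members, fewer than the 211 with an AFP UMI. ALB was seen in 10.6%, 6.72% and 0% of APO-high cells in replicates 1, 2 and 3, against 1.67%, 0.787% and 0.747% of APO-low cells. In replicate 1 a single member held 96.7% of the 456 ALB UMIs. Replicate 2 had 13 ALB UMIs and replicate 3 had 0 of 42 cells with one, which allows a share of up to 7.14%. APOA1 and APOC3 lie side by side on chromosome 11, at 116835751 to 116837950 on the minus strand and 116829706 to 116833072 on the plus strand.

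The members kept the alpha-cell label by its markers. GCG, which the rule used, stood at a median of 11.97%, 13.1% and 8.96% of a member's UMIs, below the 14.5%, 14.7% and 10.7% of APO-low cells in each library. TTR, the thyroid hormone and retinol carrier made by both alpha cells and hepatocytes, was at 78768, 78122 and 68886 CPM in APO-high and 71286, 71974 and 75546 CPM in APO-low cells. These values overlapped (log2 fold change 0.07 ± 0.038, adjusted p = 0.33, edgeR quasi-likelihood test). IRX2, an alpha-cell transcription factor, was at 389, 440 and 404 CPM against 417, 443 and 406, which also overlapped (-0.01 ± 0.057).

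Each of the 4 rule genes was then tested on classes formed from the other 3, with unchanged limits. The 4 genes had been put together with earlier results of these data known, so the tests describe them and give no independent support. AFP stood at 524, 543 and 111 CPM in cells high for the 3 apolipoproteins and 56.4, 92.0 and 11.3 CPM in cells low for them, a log2 fold change of 2.91 ± 0.088 (SE). The values of each library differed in the same direction, and the lowest high-class value, in replicate 3, still exceeded every low-class value. APOA1 showed 686, 619 and 553 against 63.8, 70.4 and 46.4 CPM (3.34 ± 0.075). APOB changed by 1.88 ± 0.086 and APOC3 by 1.85 ± 0.093. All 4 were higher in 3 of 3 libraries and passed edgeR's quasi-likelihood test at a Benjamini-Hochberg adjusted p of 0.05. Without the library block the adjusted p of AFP was 0.012 by the same edgeR test.

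Across all genes, 12431 passed the filter on low counts, beside the 7 genes of the rule. In APO-high cells 511 were higher, 4.11% of those tested, and 364 were lower, 2.93%, at an adjusted p of 0.05 (edgeR, library as block). Their differences had one sign in all 3 libraries for 464 and 333 of these genes. The change was at least 2-fold for 107 and 111. The lowest APO-high value exceeded the highest APO-low value for 308 of the higher genes, and the reverse held for 256 of the lower genes. The same counts over all tested genes are not given here, and genes called for a difference are more likely to show such patterns. The p-values take no account of the classes having been formed on RNA of the same cells. The median log2 fold change of all tested genes was -0.0038. DESeq2's Wald test, run on the same sums, called 132 genes higher (1.06%) and 34 lower (0.274%), all of them among the edgeR calls. Where a gene named below was called by edgeR but not by DESeq2, that is stated.

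The mitochondrial share differed between the classes. Median mitochondrial UMIs were 16.1%, 16.4% and 16.99% in APO-high cells and 14.4%, 13.7% and 14.5% in APO-low cells. The share of APO-high cells among glucagon cells was 10.2%, 7.89% and 1.75% where mitochondrial UMIs were under 12%, and 20.9%, 28.9% and 7.69% between 16% and 18%. Median depths were close, at 16148, 22758 and 9985.5 UMIs against 16074, 19771 and 10230. In cells of 14 to 18% mitochondrial UMIs only, a band chosen after the data were seen, 257 genes were higher and 138 lower. In that band, whose cells are part of those that gave the calls, 479 of 480 higher genes and 321 of 323 lower genes that could be tested kept their sign. At most 10% mitochondrial UMIs left 3, 8 and 1 members, and there 144 of 218 higher and 106 of 121 lower genes kept it. The part of the mitochondrial share in the remaining difference was not tested.

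**Figure D2:**
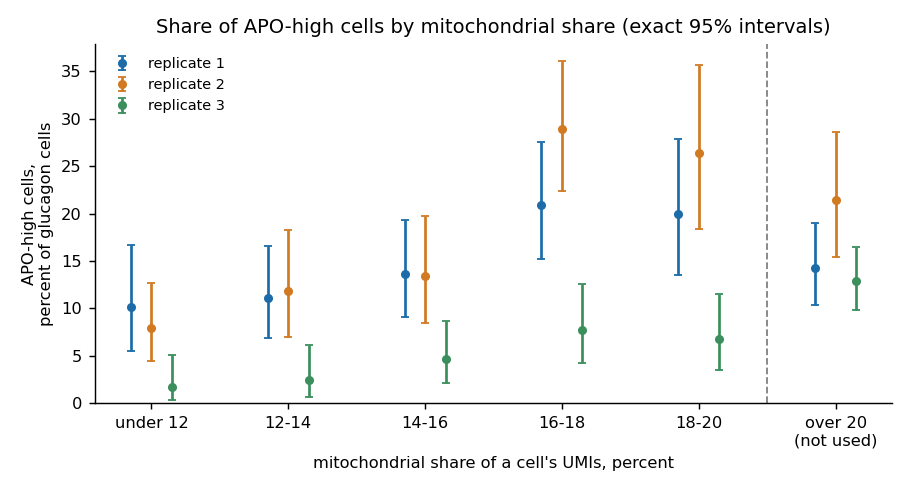
APO-high cells as a percent of glucagon cells (vertical axis) in bins of the cell's mitochondrial UMI share (horizontal axis, percent), by library, with exact 95% intervals. The points from 16% to 20% lie above those under 14% in each library, and the rightmost bin holds barcodes over the 20% limit that no comparison used.

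Several genes of secreted liver proteins were higher in APO-high cells. Of 26 listed, 11 passed the filter, and 8 of these were higher and 0 lower, with a median log2 fold change of 0.90. DESeq2 called 6 of the 8. F2, RBP4 and HPX fell below the filter's level of 1.97 CPM in at least 1 APO-low sum and so entered with the help of the APO-high sums, which favours higher calls. Of the 8 genes that reached this level in all 3 APO-low sums, 6 were higher (median 0.69), against 3.98% of all 11814 such genes. F2, prothrombin, was at 5.99, 8.62 and 9.33 CPM in APO-high against 1.42, 0.798 and 0.698 CPM in APO-low cells (log2 fold change 2.93 ± 0.41). The classes did not overlap, although only 44 F2 UMIs were counted in all members. RBP4, the plasma carrier of retinol, was at 21.2, 17.6 and 9.33 against 4.99, 2.79 and 1.95 CPM (2.36 ± 0.25). VTN, the adhesive plasma protein vitronectin, differed between libraries as well as between classes, at 466, 352 and 121 against 182, 110 and 44.7 CPM. Its classes overlapped across libraries, yet the APO-high value was the higher one in each (1.54 ± 0.066). SERPIND1, heparin cofactor II, rose by 1.17 ± 0.14 and AGT, angiotensinogen, by 0.78 ± 0.063. SERPINA1, the elastase inhibitor alpha-1 antitrypsin, was abundant in both classes, at 4589, 4544 and 3421 against 2942, 2975 and 2509 CPM (0.60 ± 0.044). The protease inhibitor precursor AMBP (1.63 ± 0.31, with 1 cell holding up to 72.7% of a library's AMBP UMIs) and the vitamin D carrier GC (0.26 ± 0.052, higher in 2 of 3 libraries) were not called by DESeq2. APOH, a phospholipid-binding plasma protein, did not pass, at 148, 160 and 112 against 169, 164 and 205 CPM (-0.17 ± 0.071, adjusted p = 0.15, edgeR).

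The remaining 15 secreted liver genes were too low to test. Among them, the fibrinogen gene FGA had 0 of 5732130 UMIs in the members, which allows up to 3, and FGB and FGG had 13 and 6. AHSG and TF, which are abundant hepatocyte transcripts, had 3 and 2.

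Of 22 other apolipoprotein and lipoprotein assembly genes, 16 were tested, 9 were higher and 0 lower (median 0.35), and DESeq2 called 5. APOM and TM6SF2 fell below the filter's level in at least 1 APO-low sum, and without them 7 of 14 were higher (median 0.32). APOA2, a high-density lipoprotein protein, was at 58.0, 20.1 and 32.7 CPM in APO-high against 4.70, 2.66 and 2.37 CPM in APO-low cells (3.46 ± 0.21), and 1 cell held up to 64.3% of a library's APOA2 UMIs. APOM, a carrier of sphingosine-1-phosphate, was at 29.01, 32.9 and 11.7 against 7.41, 7.71 and 1.53 CPM (2.12 ± 0.19). Neither gene overlapped between the classes. APOC1 rose by 0.80 ± 0.076, APOE, a ligand of lipoprotein receptors, by 0.65 ± 0.076 and CLU by 0.40 ± 0.044. The triglyceride synthase DGAT1 (0.68 ± 0.13) and TM6SF2, which acts in lipoprotein lipidation (1.64 ± 0.53), were called by edgeR and not by DESeq2. MTTP, which loads lipid onto APOB, had 4 UMIs in all members and was not tested.

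Of 31 genes of hepatic and intestinal metabolism, 12 were tested, 8 were higher and 0 lower (median 0.65), and DESeq2 called 7. FABP1 and ASGR2 fell below the filter's level in every APO-low sum, and without them 6 of 10 were higher (median 0.57). FABP1, the liver fatty acid-binding protein, had the largest fold change of the named genes, with 36.8, 23.3 and 9.33 CPM in APO-high against 1.14, 1.06 and 0.419 CPM in APO-low cells (4.72 ± 0.29). A FABP1 UMI was found in 18.6% ± 11.0 of APO-high cells and 1.31% ± 0.765 of APO-low cells, and after drawing down to 5000 UMIs in 7.31% and 0.414%. In replicate 1 a single member held 50% of the 80 FABP1 UMIs, and in replicate 3 a single member held 50% of 4. None was seen in 9, 10 and 91 cells with collagen genes at 0.1% of UMIs or more, taken as a background class with median depths of 16431, 15194.5 and 9299 UMIs. These counts allow a share of up to 33.3%, 30% and 3.30%, so the background is bounded below the members' share (19.5%, 29.1% and 7.14%) in replicate 3 only. Both subunits of the asialoglycoprotein receptor, a hepatocyte surface receptor, were higher: ASGR2 at 17.04, 9.90 and 11.7 against 1.28, 1.33 and 0.837 CPM (3.41 ± 0.35), and ASGR1 by 1.30 ± 0.17. CIDEB, a lipid droplet protein of liver, was at 52.5, 45.3 and 37.3 against 12.2, 12.1 and 13.0 CPM (1.97 ± 0.15). The retinaldehyde dehydrogenase ALDH1A1 rose by 0.69 ± 0.050 and the microvillus protein VIL1 by 0.43 ± 0.064. The intestinal regulator CDX2, the intestinal FABP2 and the gluconeogenic PCK1 and G6PC had 0 UMIs in the members.

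The promoters of 4 of these genes are shown because their sequences hold short motifs of the HNF1 or FOXA factors. Each is the stretch of 250 bases before the RefSeq start site in GRCh38.p14, 5′ to 3′ on the gene's strand, with the motif in capitals: GTTAAT (an HNF1 core) or its reverse complement for AFP, F2 and FABP1, TGTTTGC (FOXA) for FABP1, and TGTTTAC (FOXA) as its reverse complement for APOA2. AFP spans chr4:73435971-73436220 on the plus strand, FABP1 chr2:88128063-88128312 on the minus strand, F2 chr11:46718963-46719212 on the plus strand and APOA2 chr1:161223629-161223878 on the minus strand.
AFP: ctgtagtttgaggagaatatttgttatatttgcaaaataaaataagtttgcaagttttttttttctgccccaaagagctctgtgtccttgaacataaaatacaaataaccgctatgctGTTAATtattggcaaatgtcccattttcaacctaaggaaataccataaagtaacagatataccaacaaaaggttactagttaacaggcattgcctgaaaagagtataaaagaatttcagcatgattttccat
FABP1: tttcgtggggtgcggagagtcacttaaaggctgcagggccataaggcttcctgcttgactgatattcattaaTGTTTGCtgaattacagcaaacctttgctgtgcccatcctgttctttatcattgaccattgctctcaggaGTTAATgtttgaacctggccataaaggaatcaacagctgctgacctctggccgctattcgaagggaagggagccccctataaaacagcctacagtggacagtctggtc
F2: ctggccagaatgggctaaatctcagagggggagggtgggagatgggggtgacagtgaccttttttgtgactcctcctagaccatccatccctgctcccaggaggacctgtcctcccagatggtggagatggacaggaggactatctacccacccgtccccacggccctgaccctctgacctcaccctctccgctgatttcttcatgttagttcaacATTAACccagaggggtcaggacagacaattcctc
APOA2: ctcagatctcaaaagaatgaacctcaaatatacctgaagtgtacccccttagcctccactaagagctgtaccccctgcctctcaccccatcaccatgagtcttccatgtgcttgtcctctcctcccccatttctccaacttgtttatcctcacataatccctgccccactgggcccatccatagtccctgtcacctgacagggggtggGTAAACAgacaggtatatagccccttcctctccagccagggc
The GTTAAT match began 132 bases before the start in AFP, 108 in FABP1 and 34 in F2, and the APOA2 match 42. Of 31 rule and called hepatic genes looked for, 20 had a promoter in the table, with 27 promoters among them, since some genes have several start sites. GTTAAT on either strand was in 5 of the 27 (18.5%), against 6.23% of all 35116 promoters of the same length. TGTTTAC or TGTTTGC was in 5 of the 27, and alone they were found in 2.98% and 3.23% of all promoters. The HNF4 core CAAAGTCC was in 1 of the 27 and in 1.02% of all. A match is a description of the letters only.

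Of 25 hepatic and foregut transcription factors, 18 were tested, 2 (11.1%) were higher and 1 (5.56%) lower, with a median of 0.10, and DESeq2 called 0. HNF4A, a receptor-type factor of liver, gut and islet, was at 36.4, 37.0 and 37.3 CPM in APO-high against 22.4, 24.2 and 26.0 CPM in APO-low cells. These did not overlap (0.67 ± 0.14, edgeR adjusted p = 4.0e-05, DESeq2 adjusted p = 0.14). CEBPA, a liver and fat cell factor, was at 28.1, 26.5 and 28.0 against 22.1, 19.7 and 14.7 CPM (0.48 ± 0.16). The pioneer factor FOXA2 was lower, at 32.2, 26.5 and 32.7 against 43.0, 44.7 and 49.8 CPM (-0.56 ± 0.13).

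Of 25 alpha-cell and endocrine factors, 22 were tested, 3 were higher and 3 lower, with a median of 0.02. The carbohydrate-response factor MLXIPL rose by 0.59 ± 0.098 and was also called by DESeq2. PDX1, a factor of pancreas development (0.69 ± 0.24), PAX6, a factor of all islet endocrine cells (-0.26 ± 0.067), and FEV, a factor of serotonergic and endocrine precursor cells (-0.31 ± 0.079), were called by edgeR only.

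**Figure D3:**
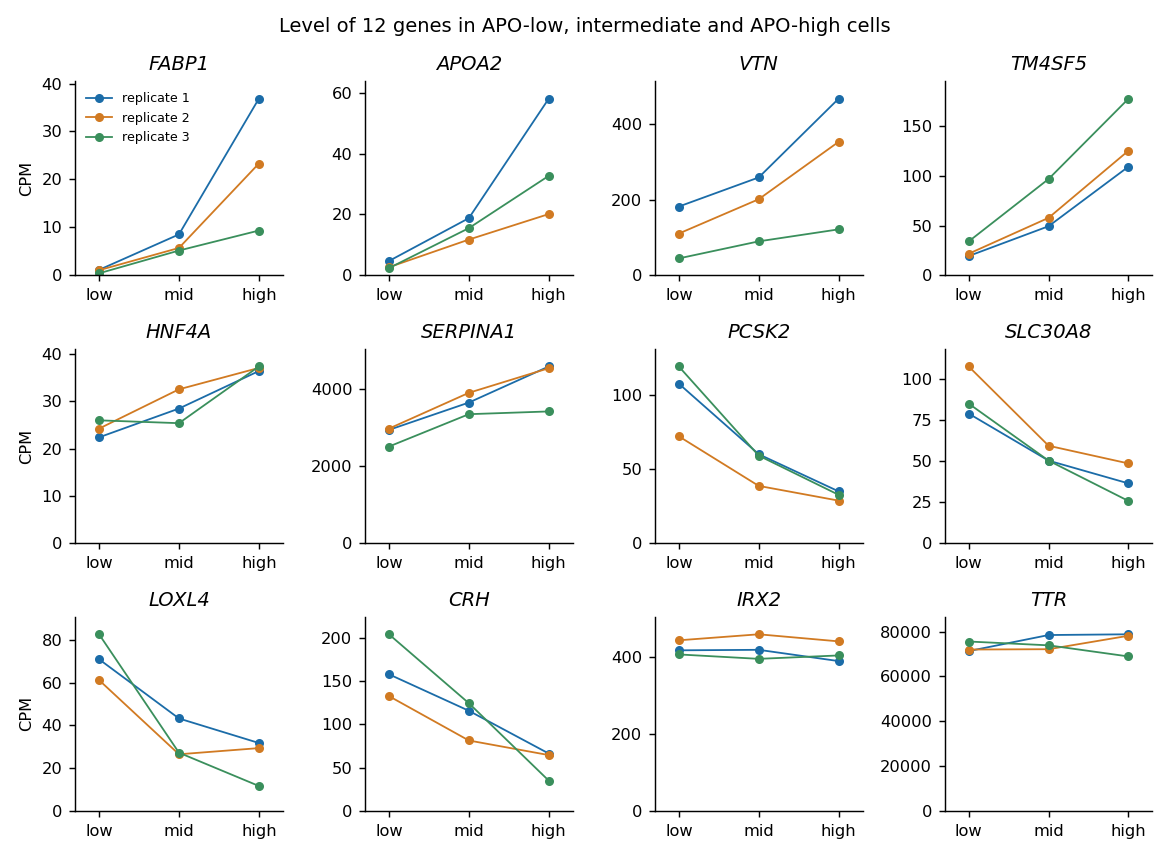
CPM (vertical axes, from 0) of 12 genes in APO-low, intermediate and APO-high cells (horizontal axes), 1 line per library. FABP1, APOA2, VTN and TM4SF5 step up and PCSK2 and SLC30A8 step down through the intermediate cells in each library, while IRX2 and TTR stay close to level.

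Peptide hormone genes other than those of the rule were lower in part. Of 17 listed, 8 were tested, 1 was higher and 5 lower (median -0.85), and DESeq2 called SCT, CRH and UCN3. NPY, ADCYAP1 and IAPP fell below the filter's level in at least 1 APO-high sum, and of the 5 genes that reached its level in all 3 APO-high sums 2 were lower. CRH, corticotropin-releasing hormone, was at 66.3, 64.5 and 35.0 CPM in APO-high against 158, 133 and 204 CPM in APO-low cells, with no overlap (-1.23 ± 0.087). UCN3, urocortin 3, was lower in 2 of 3 libraries, at 33.6, 59.4 and 28.0 against 66.4, 117 and 27.2 CPM (-0.89 ± 0.10). Neuropeptide Y (NPY, -2.38 ± 0.42, 9 UMIs in all members), PACAP (ADCYAP1, -1.11 ± 0.24) and amylin (IAPP, -0.81 ± 0.21) were called by edgeR only. IAPP was lower in 2 of 3 libraries, and without replicate 1 its change was 0.42. Secretin (SCT) was higher, at 157, 128 and 166 against 99.4, 81.5 and 74.2 CPM (0.76 ± 0.078).

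Genes of prohormone processing and of granules were lower in part. Of 9 tested processing genes 0 were higher and 3 lower. PCSK2, the convertase that makes glucagon, was at 35.0, 28.7 and 32.7 CPM in APO-high against 108, 72.2 and 119 CPM in APO-low cells (-1.48 ± 0.11). Every APO-high value was below every APO-low value, and a PCSK2 UMI was present in 33.4% ± 4.48 against 60.2% ± 6.11 of cells (13.3% and 34.9% after drawing down to 5000 UMIs). PCSK1, the convertase that yields GLP-1 and insulin, was low in both classes, with 7 UMIs in all members (-2.00 ± 0.49), and the amidating enzyme PAM was lower in 2 of 3 libraries (-0.78 ± 0.14). DESeq2 called neither. Of 15 tested granule genes 2 were higher and 4 lower. SLC30A8, the granule zinc transporter, was at 36.4, 48.5 and 25.7 against 78.9, 108 and 85.0 CPM (-1.14 ± 0.10). VGF (-0.78 ± 0.12) and GNAS (-0.39 ± 0.045) were lower by both tools and SCG2 (-0.31 ± 0.064) by edgeR. The granin CHGA went the other way, at 12566, 14946 and 6203 against 9876, 10214 and 3904 CPM (0.54 ± 0.042), as did SCGN by edgeR only (0.17 ± 0.056).

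All 18 listed alpha-cell surface and secreted genes were tested, and 8 were higher and 1 lower (median 0.23). SMIM24 rose by 1.06 ± 0.069, FXYD3, a regulator of the sodium pump, by 0.90 ± 0.068 and DPP4, the peptidase that inactivates incretins, by 0.76 ± 0.056. LOXL4, a matrix cross-linking enzyme, was lower, at 31.8, 29.4 and 11.7 against 70.9, 61.2 and 82.6 CPM (-1.18 ± 0.12), with no overlap.

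**Figure D4:**
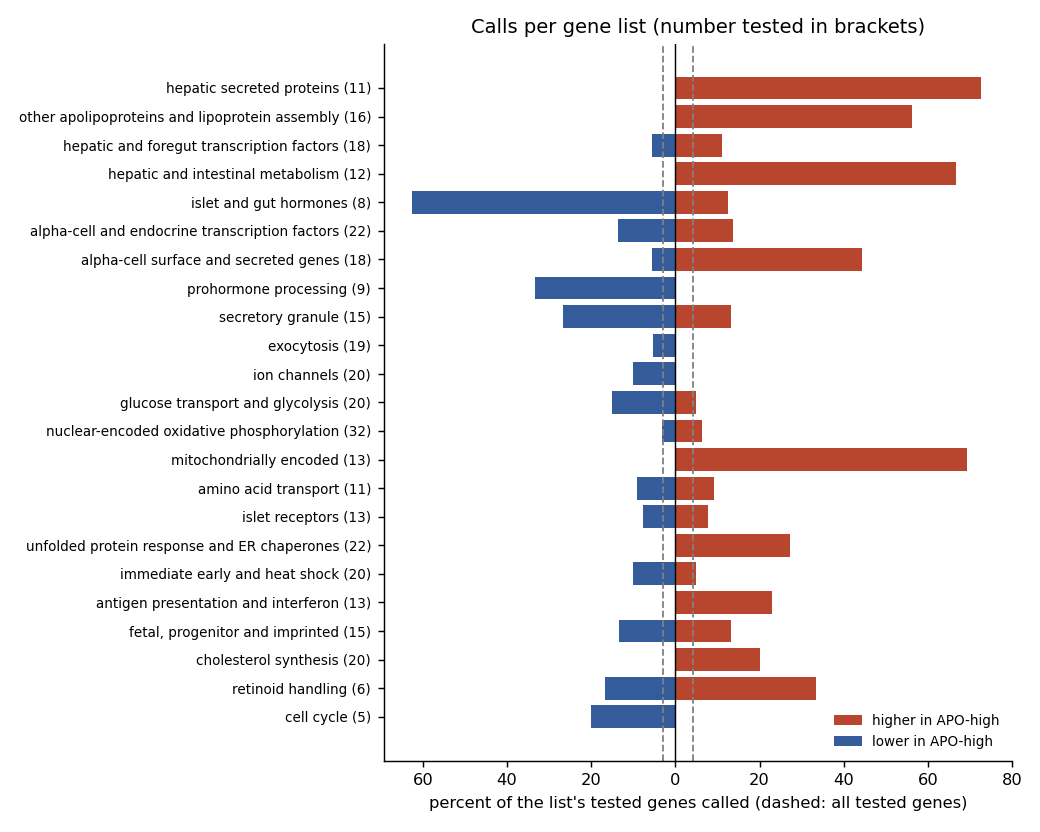
Percent of the tested genes of each list that were higher (right) or lower (left) in APO-high than in APO-low cells, by edgeR, for the lists with 5 or more tested genes, with the number tested in brackets. The dashed lines mark all tested genes, 4.11% higher and 2.93% lower, and 5 lists reach past 50%: hepatic secreted, lipoprotein, hepatic metabolism and mitochondrially encoded genes to the right and islet and gut hormones to the left. The bars include genes that fell below the filter's level in 1 class. Of genes at that level in all 3 APO-low sums, 6 of 8 hepatic secreted, 7 of 14 lipoprotein and 6 of 10 hepatic metabolism genes were higher. Of hormone genes at that level in all 3 APO-high sums, 2 of 5 were lower.

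Of 13 mitochondrially encoded genes 9 (69.2%) were higher and 0 lower (median 0.16), among them MT-ND3 (0.28 ± 0.042) and MT-CO3 (0.25 ± 0.040), and these move with the mitochondrial share given above. The other lists had lower shares of calls. Of 22 unfolded protein response genes 6 were higher and 0 lower, of 20 cholesterol synthesis genes 4 and 0, and of 13 antigen presentation genes 3 and 0. DESeq2 called 0, 1 and 1 of these: HMGCS1, which makes HMG-CoA for sterol synthesis (0.54 ± 0.067), and HLA-E (0.70 ± 0.086). Among 20 glucose transport and glycolysis genes 1 was higher, the transporter SLC2A1 (0.60 ± 0.083), and 3 were lower. The lists for exocytosis, ion channels, nuclear-encoded respiratory chain, amino acid transport, islet receptors, immediate early and heat shock, fetal and imprinted, retinoid handling, cell cycle and nuclear RNA had at most 2 calls in either direction. Some are short, and several shares exceeded the 4.11% higher and 2.93% lower of all tested genes. Retinoid handling had 2 of 6 higher (33.3%) and 1 lower (16.7%), and nuclear RNA 1 of 3 in each direction. Fetal and imprinted genes had 2 of 15 (13.3%) in each direction. Lower were 1 of 5 cell cycle (20%), 2 of 20 ion channel (10%) and 2 of 20 immediate early and heat shock genes (10%). The remaining shares were at most 9.09%.

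Outside the lists, the largest increase among the genes that the naming rule admits was that of TM4SF5. This gene, a tetraspan membrane protein, was at 109, 125 and 177 CPM in APO-high against 19.4, 21.7 and 34.0 CPM in APO-low cells (2.51 ± 0.096). A TM4SF5 UMI was present in 68.4% ± 10.4 of APO-high and 19.8% ± 2.03 of APO-low cells (42.1% and 8.95% after drawing down to 5000 UMIs), and in 0 of the 110 collagen cells. CD74, the invariant chain of class II antigen presentation, was at 85.6, 102 and 91.0 against 33.9, 31.4 and 26.2 CPM (1.61 ± 0.098). AMN, which takes up vitamin B12 in gut and kidney, was at 153, 151 and 117 against 57.1, 47.1 and 48.6 CPM (1.55 ± 0.083). None of these 3 overlapped. The neutral amino acid transporter SLC6A19 rose by 1.02 ± 0.10, the fructose kinase KHK by 0.97 ± 0.10, the glycerol channel AQP10 by 0.95 ± 0.10, the cholesterol exporter ABCA1, which loads APOA1, by 0.93 ± 0.12 and the sialyltransferase ST6GAL1 by 0.89 ± 0.11. The lipid droplet coat protein PLIN2 was at 287, 304 and 299 against 155, 167 and 189 CPM (0.87 ± 0.063), and CALY rose by 0.84 ± 0.076. On the lower side were the surface glycoprotein CD24 (-0.93 ± 0.098), SAMD5 (-0.92 ± 0.094), C1QL1 (-0.88 ± 0.089) and VSTM2A (-0.86 ± 0.10). All 14 genes of this paragraph were also called by DESeq2.

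**Figure D5:**
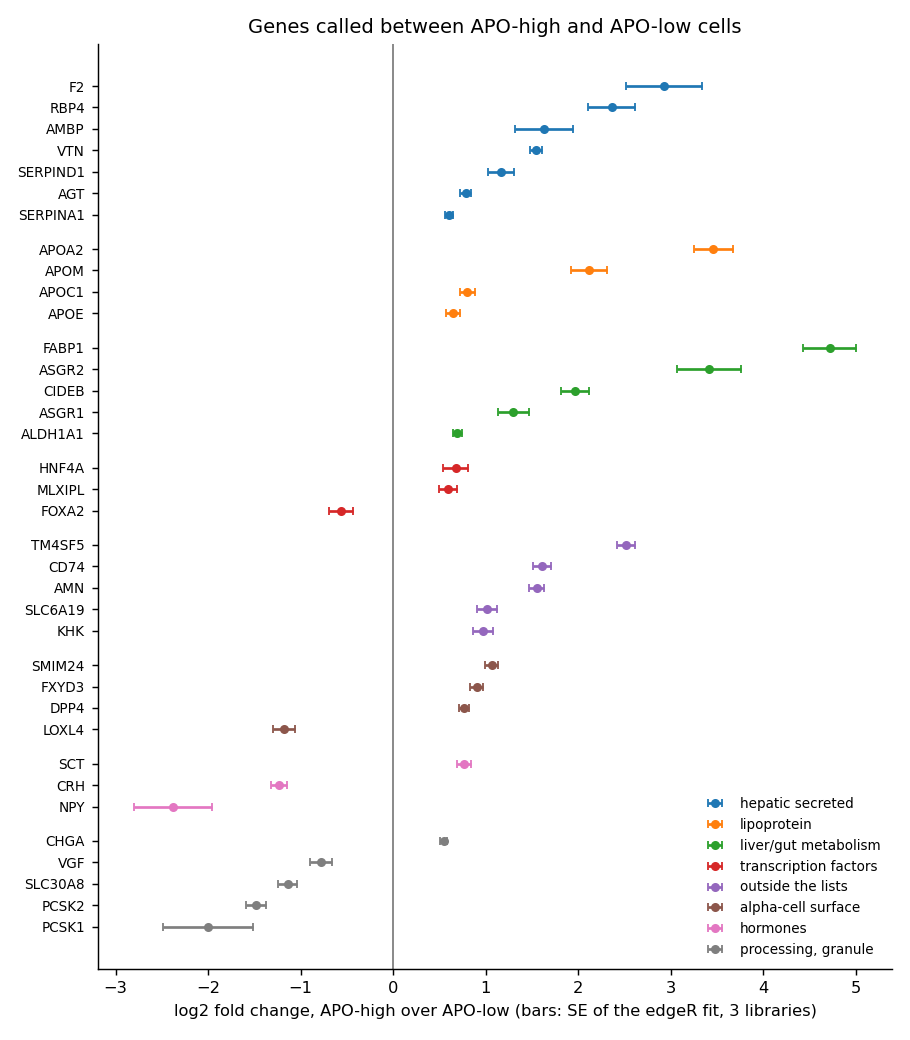
Log2 fold change of APO-high over APO-low cells (horizontal axis) for named genes, with the SE of the edgeR fit over 3 libraries as bars and colours for the gene groups. FABP1, APOA2 and ASGR2 lie above 3, and PCSK1 and NPY, which have the widest bars below 0, rest on 7 and 9 UMIs in the members.

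Intermediate cells lay between the classes in each of the 3 libraries for 241 of the 511 higher and 168 of the 364 lower genes. FABP1, APOA2, F2, TM4SF5, VTN, CIDEB, PCSK2, SLC30A8 and CRH were among these genes. HNF4A lay between in 2 libraries. The share of all tested genes with this order is not given here.

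Markers of other cell types were summed in the members. The 8 mesenchymal markers summed to 1.28 to 11.7 CPM in APO-high and 2.99 to 20.1 CPM in APO-low cells, with DCN and LUM at 0, and the 4 endothelial and 5 erythroid markers to 0. The 13 hepatocyte markers left after taking out the 4 genes of the rule summed to 3743 to 5550 against 2793 to 3332 CPM, with FGA at 0. SERPINA1 gave most of these UMIs in both classes. The 7 intestinal markers, of which VIL1 gave most of the UMIs, summed to 254 to 267 against 178 to 208 CPM, with CDX2, FABP2, KRT20 and MUC2 at 0. The 6 ductal markers summed to 138 to 156 against 106 to 121 CPM, with CFTR and SPP1 at 0. These 3 sums did not overlap between the classes, and their part in the results was not tested. The 6 enterochromaffin markers summed to 198 to 235 against 230 to 313 CPM and the 8 neural markers to 181 to 338 against 221 to 343 CPM, both with overlap. The 5 acinar markers summed to 2.87 to 7.001 CPM against 1.06 to 1.99 CPM, with CPA1, CTRB1, CELA3A and PTF1A at 0. Scrublet marked 2, 0 and 0 members as doublets, and without marked cells 510 genes were higher and 363 lower.

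Only 13 cells, 2, 4 and 7 by library, had ALB at 0.1% of UMIs or more with GCG under 5%, too few for the test. Pooled, their CPM is set beside that of the pooled members as a description, with exact Poisson intervals that cover counting error only. ALB was at 4327 (4033 to 4637) in them and 81.8 (74.6 to 89.6) in the members, GC at 3035 (2790 to 3297) and 822 (799 to 846), and ALDH1A1 at 5064 (4746 to 5399) and 1296 (1267 to 1326). APOC3 was at 323 (246 to 416) against 1010 (984 to 1036) and AFP at 328 (251 to 422) against 800.2 (777 to 824). ALB chose the ALB cells and APOC3 and AFP the members, so these 3 differences follow from the choice. The pooled order of AFP did not hold in replicate 1, where the mean share of AFP was 0.0727% in 2 ALB cells and 0.0681% in the members. Other genes that were higher in APO-high than in APO-low cells went both ways. VTN was at 554 (452 to 672) in the ALB cells against 378 (363 to 395) in the members, and AMBP at 108 against 9.60. Intervals overlapped for APOA2 (70.0 against 35.4), FABP1 (32.3 against 27.4), ASGR2 (26.9 against 12.7) and CIDEB (59.2 against 47.5). SERPINA1 (2083 against 4477) and APOC1 (70.0 against 151) were higher in the members. No ALB UMI was present in 277 of the 299 members, and with such cells only, in both classes, 495 genes were higher and 342 lower.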

How the data were processed

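Per the labels and the submitters' processing notes, the authors made 10x Genomics 3' v3 libraries and processed them with Cell Ranger 4.0.0 against GRCh38. The deposited matrices hold raw UMI counts for 33538 features. The annotation version is not given in the sources used here. Counts were summed per library and class and tested with edgeR 4.0.16 (quasi-likelihood, TMM, filterByExpr, library as block because both sums of a pair come from one library), Benjamini-Hochberg adjusted over all genes. The 7 genes of the rule were left out. The SE is the log2 fold change over the square root of F. All genes shared one trend of the spread, since the estimated prior was without bound, so p-values are small. DESeq2 1.42.0 was an alternative. Scripts were tested on simulated data. Doublets were marked by Scrublet (scanpy 1.11.5) and kept. The members and the 24 lists were chosen with earlier results of these data known. Named genes are up to 4 per list and up to 10 per direction outside the lists (at least 50 CPM), by fold change, among calls with one sign in 3 libraries. Some that the rule admits, and some called members of the lists, are not reported here. APOE, CLU, DGAT1, SERPIND1, AGT, SERPINA1, GC, APOH, ALDH1A1, VIL1, PAM, SCG2, SCGN, UCN3, IAPP and IRX2 were named after their values were seen. Promoter sequences are from RefSeq, GRCh38.p14.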

Additional observations from a re-analysis of the deposited data

Results flagged for a closer look

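Barcodes over the limit of 20% mitochondrial UMIs entered no comparison, yet many that met the hormone limits reached the upper limit of the sum. They numbered 39 of 273 (14.3%, exact 95% interval 10.4 to 19.01%) in replicate 1, 35 of 163 (21.5%, 15.4 to 28.6%) in replicate 2 and 53 of 412 (12.9%, 9.79 to 16.5%) in replicate 3. In replicate 3 this number exceeds the 42 members under the limit.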

How the results depend on the processing

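The counts of higher and lower genes, 511 and 364, were 132 and 34 with DESeq2, 138 and 72 in cells thinned to 5000 UMIs, 134 and 65 with the upper limit at 0.3%, 295 and 179 on the sum without APOA1, 118 and 41 without APOC3 and 257 and 138 at 14 to 18% mitochondrial UMIs (added after seeing the data). The lower genes were 193 with GCG at least 10%. Without the replicate block, whose pairing comes from sums of the same library, they were 106 and 49. At most 10% mitochondrial UMIs left 3, 8 and 1 members, 2518 tested genes and counts of 1 and 1. Leaving out 1 library gave 216 to 520 higher and 103 to 353 lower genes, the lowest without replicate 2 and the next, 252 and 137, without replicate 1. RLE factors, no filter on low counts, the 5000 UMI minimum, doublet removal, no ALB UMI, the lower limit of 0.02% and the sums without AFP or APOB kept both counts within 1.5 times. The mean share of APO-high among glucagon cells, 12.3%, was 5.16% at most 10% mitochondrial UMIs and 2.87% with the 0.3% limit, and 9.94 to 16.2% with 1 library left out. The left-out markers were refitted only with 1 library left out, without the library block and with DESeq2, and stayed called in each of these runs. The other settings were not run for them. With 1 library left out, AFP ranged from 2.72 to 3.21, APOA1 from 3.30 to 3.47, APOB from 1.81 to 1.94 and APOC3 from 1.77 to 1.94. Of 1330 values recomputed, 15 changed direction, 191 were counted as weaker and 1121 as the same. At most 10% mitochondrial UMIs left 2 of 40 the same, with 31 weaker and 7 reversed. Weaker were also 28 of 69 without the replicate block and 25 of 68 on the sum without APOC3. At most 10% mitochondrial UMIs gave APOE -0.066, ALDH1A1 -0.071, SCT -0.13, DPP4 -0.077, TTR -0.15, APOH 0.41 and C1QL1 0.089. IAPP ranged from -2.01 to 0.42 with 1 library left out (0.42 without replicate 1) and was 0.58 with the 0.3% limit, 0.29 with the 0.02% limit, 1.47 with GCG at least 10% and 0.66 without APOC3. IRX2 ranged from -0.054 to 0.030 with 1 library left out (0.030 without replicate 1) and was 0.00105 with no ALB UMI and 0.069 on the sum without AFP. The cause of these changes was not tested. The planned test against ALB cells was not run, since no library had 10 of them. The 42 members of replicate 3 limit the precision of low genes there.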
